A study of Mus musculus with 7 samples.

Results

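The subject is a set of 37 mouse genes of the cell division cycle, 15 that peak when DNA is copied (S phase) and 22 that peak in G2 phase and mitosis (G2/M). They were found by symbol in the gene lists of all 7 libraries, and all 37 of them were present among 31053 genes. The S members were Mcm2, Mcm3, Mcm4, Mcm5, Mcm6, Mcm7, Pcna, Tyms, Rrm1, Rrm2, Gins2, Cdc6, Cdc45, Slbp and Ung. The G2/M members were Mki67, Top2a, Cenpa, Cenpe, Cenpf, Ube2c, Birc5, Aurka, Aurkb, Cdk1, Ccna2, Ccnb1, Ccnb2, Cdc20, Plk1, Bub1, Kif11, Kif23, Tpx2, Nusap1, Hmmr and Spc25.

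The data were droplet single-cell RNA counts from mouse bone marrow of the spine, hips, femur and tibia after lysis of red cells. Cells of 20 hashtag samples, each marked with an oligo-tagged antibody, had been run in 4 pools. By the prefix of the sample name, 3 samples were WTY, 4 were WTO, 3 were HRY and 6 were HRO. A group of 2, called chronic here, was formed by HRO.5 and HRO.6, since the design text describes them as chronic and TET2-mutated. The sources used here do not state what the prefixes stand for, nor strain, age, genotype or treatment of the other samples, and the title of the series speaks only of inflammation and myeloid transformation. HR.7 and HR.AE had no group and enter no comparison. Whether each hashtag marks a separate animal is not stated, so p-values reflect only how far hashtag samples differ, which may be technical.

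A dividing cell first loads the MCM helicase on its replication origins, then copies its DNA around the sliding clamp PCNA with nucleotides from enzymes such as ribonucleotide reductase. It then makes the cyclins, kinases, kinetochore proteins and motors that build and run the mitotic spindle. Transcription of the first set is classically driven by E2F factors, and that of the second set through CHR and CCAAT elements read by the DREAM and MuvB complexes and by NF-Y. In marrow, progenitors of the erythroid, granulocytic, monocytic and B lineages divide as they mature, while mature neutrophils and plasma cells have left the cycle.

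RefSeq promoter entries (GRCm38.p6) matched 32 of the 37 members. The entries for Mcm4, Gins2, Aurkb, Ccna2 and Tpx2 were missing. The 100 bases upstream of the RefSeq start of 2 S members and 2 G2/M members follow, because they hold the motifs classically tied to each phase. Capitals mark matches, on either strand, to an E2F-type motif (TTCCCGC or TTGGCGC), a CHR motif (TTTGAA or TTCGAA) or CCAAT, and the search covered 250 bases upstream of the start.
Mcm6, chr1:128359706-128359805, minus strand: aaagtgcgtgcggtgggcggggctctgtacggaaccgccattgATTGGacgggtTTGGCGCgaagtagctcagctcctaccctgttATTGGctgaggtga
Rrm1, chr7:102441595-102441694, plus strand: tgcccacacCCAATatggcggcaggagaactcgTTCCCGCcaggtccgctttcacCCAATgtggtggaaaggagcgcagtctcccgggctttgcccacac
Cdc20, chr4:118437344-118437443, minus strand: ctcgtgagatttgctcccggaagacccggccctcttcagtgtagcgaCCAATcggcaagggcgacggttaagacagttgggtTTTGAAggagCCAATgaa
Top2a, chr11:99024190-99024289, minus strand: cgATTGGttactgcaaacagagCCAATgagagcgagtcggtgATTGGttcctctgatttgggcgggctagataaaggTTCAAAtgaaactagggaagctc
The E2F-type letters were found upstream of 5 of 13 S members (38.5%; Cdc6, Mcm5, Mcm6, Mcm7 and Rrm1), 3 of 19 G2/M members (15.8%; Ccnb1, Cdk1 and Mki67) and 6.45% of 27025 genes. The CHR letters were found upstream of 7 of 19 G2/M members (36.8%; Ccnb2, Cdc20, Cdk1, Kif11, Mki67, Top2a and Ube2c), 3 of 13 S members (23.1%) and 19.6% of all genes. CCAAT was found upstream of 17 of 19 G2/M members (89.5%), 10 of 13 S members (76.9%) and 37.5% of all genes. These are matches of letters only.

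After quality filters, 43024 cells remained of 57944 singlets, from libraries of 25343305 to 95553827 UMIs (counted RNA molecules), with 928 to 5530 cells a sample. A cell joined a marrow class when at least 2 of that class's marker genes were on, with no member among the markers. This gave 21 classes, each of cells that resemble the class by its markers, and 2462 cells joined none. Of the classes compared between groups or stages, the share of cells that the stricter gate would drop ran from 7.42% (immature neutrophil) to 59.6% (mature B cell), and it was 96.9% in mast-like cells, so the class edges are ranges and not types. Early erythroid cells also carried late erythroblast markers. Summed within each cell, these had a median of 21680 CPM, against 2782 CPM for their own markers. The values in late erythroblasts were 125300 and 1275 CPM. Elsewhere CPM is a gene's UMIs over all UMIs of the class in a sample, on the usual CPM scale. The medians run over all kept cells. HR.7, which enters no comparison, held 660 of 1094 early erythroid cells and 467 of 776 late erythroblasts. The globin gene Hbb-bs stood at 20796 CPM in early erythroid cells of HR.7 and at 3167 to 7149 CPM in those of the grouped samples. Libraries WBM_3a and WBM_3b shared 2078 barcodes, of which the copies with fewer UMIs were removed.

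Some samples went against the mature B cell gate. In HRO.7 and HRO.8, 62.8% and 67.2% of its cells held a UMI of the chemokine gene Ccl22, and Cr2 was at 0 CPM in both. In the other 10 samples of the gate the only cells with Ccl22 were 2 cells of HRO.9 (5.26%). The naive B cell gene Ighd stood at 154 and 192 CPM in HRO.7 and HRO.8 and at 116 CPM in HRO.9, against 768 to 1908 CPM in the other samples. The median UMI count was 10440, 11282 and 5787 in the cells of those 3 samples and 760 to 2364 in the others. In HRO.9 the B cell genes Cr2 (120), Fcer2a (176) and Ms4a1 (1759 CPM) lay within those others (54.9 to 223, 111 to 431 and 1046 to 2229 CPM). Fcer2a stood at 1.09 and 0 CPM in HRO.7 and HRO.8, and Ms4a1 at 820 and 872 CPM. Ighm (465) and Cd79a (1626 CPM) were lower in HRO.9 than in every other sample (3962 to 6467 and 2129 to 3627 CPM). In the plasmacytoid dendritic gate 27.8% of HRO.7 cells and 29.4% of HRO.8 cells held Ccl22, and the B cell gene Cd79a reached 1302 and 1196 CPM there. Without HRO.7 and HRO.8 the summed level in the mature B cell gate was 622 ± 415 CPM for the S members and 648 ± 512 CPM for the G2/M members (n = 10). With them it was 684 ± 402 and 979 ± 911 CPM (n = 12). In the plasmacytoid dendritic gate the G2/M level was 1565 ± 1249 CPM without them (n = 8) and 1814 ± 1222 CPM with them (n = 10).

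Levels of the members differed widely between classes, and are given as CPM of summed cells per hashtag sample (at least 20 cells) with the mean ± SD over samples. The S members summed to 2841 ± 823 CPM in early erythroid cells (n = 7; lowest 1958, median 2839, highest 4156). They stood at 1820 ± 364 CPM in early granulocyte precursors (n = 18; 1300, 1788 and 2490) and 1733 ± 431 CPM in pro-B or pre-B cells (n = 7; 1148, 1648 and 2280). Stem or multipotent progenitors followed with 1449 ± 383 CPM (n = 8), classical monocytes with 1224 ± 380 CPM (n = 18) and late erythroblasts with 1205 ± 590 CPM (n = 5). These 3 neighbours lay within 1 SD of each other. All 5 late erythroblast samples came from pool WBM_1, where classical monocytes averaged 795 CPM. The early erythroid samples came from WBM_1 and WBM_4 only. Levels moved with the pool, so the order of classes held by unlike samples is a description. Immature neutrophils stood at 782 ± 296 CPM (n = 18; 468, 687 and 1669), T cells at 749 ± 355 CPM (n = 14) and mature B cells at 684 ± 402 CPM (n = 12). Macrophages (329 ± 96.1, n = 3), plasma cells (270 ± 177, n = 5) and mature neutrophils (213 ± 102 CPM, n = 18) were lowest among classes with at least 3 samples.

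The G2/M members followed another order. They summed to 4465 ± 1418 CPM in pro-B or pre-B cells (n = 7; 2674, 3936 and 6431) and 4130 ± 903 CPM in early erythroid cells (n = 7; 2909, 4396 and 5175). Classical monocytes stood at 3349 ± 868 CPM (n = 18; 1875, 3297 and 4607), immature neutrophils at 3123 ± 1169 CPM (n = 18; 1828, 2895 and 5794) and early granulocyte precursors at 2904 ± 690 CPM (n = 18; 1777, 2761 and 4604). Each of these 5 classes lay within 1 SD of its neighbour in the order. Late erythroblasts (2494 ± 613, n = 5), basophils (2457 ± 460, n = 3) and stem or multipotent progenitors (2272 ± 987 CPM, n = 8) came next. The late erythroblast samples were all of WBM_1, so their place does not hold within that pool. There classical monocytes averaged 2378 CPM, early granulocyte precursors 2222 CPM and immature neutrophils 2051 CPM. Plasmacytoid dendritic cells spread from 261 to 3449 CPM (n = 10) and T cells from 177 to 2911 CPM (n = 14). Mature neutrophils stood at 411 ± 412 CPM (n = 18; 159, 277 and 1975).

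**Figure D1:**
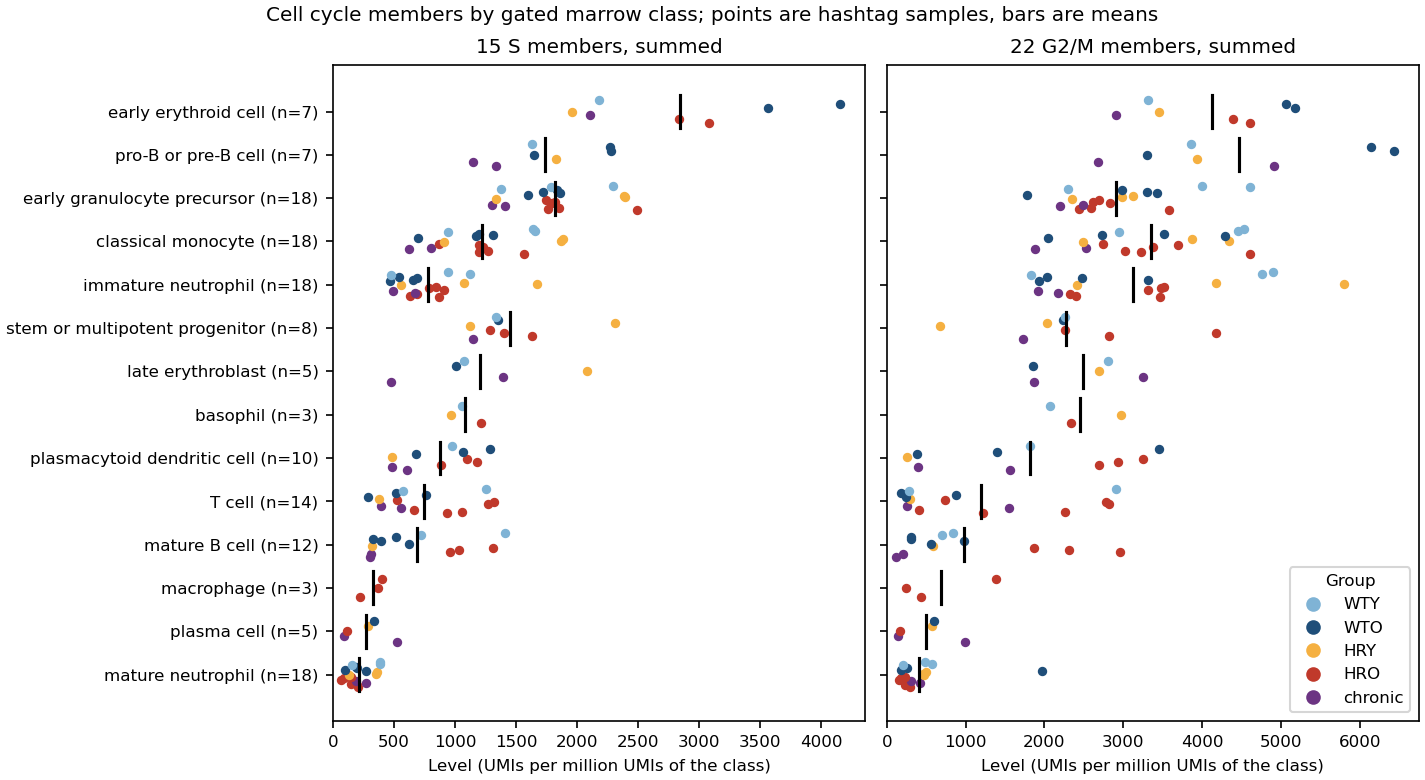
Summed level of the 15 S members and of the 22 G2/M members, in CPM, for each marrow class, with 1 point per hashtag sample coloured by group and the mean as a bar. Early erythroid cells are highest for the S members (2841 CPM on average), and mature neutrophils (213 CPM) are lowest of the classes with at least 3 samples.

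The balance of the 2 phases separated early granulocyte precursors from immature neutrophils. The S level over the G2/M level was 0.641 ± 0.119 in early granulocyte precursors (lowest 0.387, highest 0.898) and 0.253 ± 0.0311 in immature neutrophils (0.192 to 0.311), and the 18 samples of each class did not overlap. It was 0.364 ± 0.0567 in classical monocytes, 0.401 ± 0.0760 in pro-B or pre-B cells, 0.682 ± 0.0776 in early erythroid cells and 0.770 ± 0.430 in stem or multipotent progenitors. Mature neutrophils did not continue the fall, since the ratio was higher in immature than in mature neutrophils in only 1 of 18 samples. The ratio is taken within a sample, so it holds under any scaling of libraries.

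Among the origin and fork genes, the MCM helicase subunits were led by Mcm3 (ENSMUSG00000041859, chr1:20802968-20820312, GRCm38) in early granulocyte precursors, at 193 ± 38.3 CPM (lowest 135, median 189.9, highest 259). Mcm3 stood at 45.1 ± 17.0 CPM in immature neutrophils (25.9, 45.0 and 89.4) and 12.1 ± 8.30 CPM in mature neutrophils, so the first 2 classes did not overlap. Mcm3 was also the highest S member of stem or multipotent progenitors, at 191 ± 65.7 CPM. Mcm7 reached 259 ± 78.1 CPM in early erythroid cells and 187 ± 61.4 CPM in early granulocyte precursors. Cdc45, which joins the helicase to form the active fork, was highest in early granulocyte precursors at 53.5 ± 10.1 CPM. Cdc6, the origin licensing factor, was at 99.3 ± 38.8 CPM in early erythroid cells, 39.6 ± 13.1 CPM in early granulocyte precursors and 14.6 ± 6.74 CPM in immature neutrophils. Pcna, the sliding clamp, was at 305 ± 75.1, 162 ± 57.9 and 72.2 ± 35.1 CPM in the same 3 classes.

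Genes of nucleotide supply stood highest in early erythroid cells. Rrm1, the large subunit of ribonucleotide reductase, was the highest S member there at 330 ± 85.2 CPM, with Rrm2, the small subunit, at 284 ± 132 CPM and Tyms, thymidylate synthase, at 134 ± 57.4 CPM. In stem or multipotent progenitors Rrm2 was at 43.9 ± 16.2 CPM and Rrm1 at 144 ± 52.7 CPM. Ung, the uracil glycosylase that removes uracil from DNA (ENSMUSG00000029591, chr5:114130386-114139323), was highest in stem or multipotent progenitors at 41.9 ± 10.4 CPM. It stood at 27.8 ± 10.2 CPM in early granulocyte precursors (lowest 11.6, median 30.4, highest 42.7) and at 1.61 ± 1.04 CPM in immature neutrophils (0, 1.36 and 3.32). Slbp, the stem-loop protein of histone mRNA, was the highest S member of 11 classes, among them classical monocytes (167 ± 62.7 CPM), pro-B or pre-B cells (227 ± 62.1 CPM) and immature neutrophils (134 ± 48.7 CPM). It kept 65.9 ± 35.4 CPM in mature neutrophils and 55.2 ± 46.6 CPM in plasma cells, and its highest class mean was 5.59 times its lowest, against 30.3 times for Cdc6.

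Among the G2/M members, Mki67, the proliferation antigen of the chromosome surface (ENSMUSG00000031004, chr7:135689784-135716361), and Top2a, topoisomerase II alpha, took the highest place in every class with at least 3 samples. Mki67 led in early erythroid cells (595 ± 284 CPM), classical monocytes (523 ± 243 CPM) and immature neutrophils (483 ± 271 CPM; lowest 179, median 436, highest 1026). Top2a led in pro-B or pre-B cells (754 ± 263 CPM), stem or multipotent progenitors (437 ± 156 CPM) and early granulocyte precursors (430 ± 135 CPM). Mature neutrophils held 30.0 ± 21.8 CPM of Mki67 and 58.3 ± 90.3 CPM of Top2a.

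The cyclins and the genes of their destruction were read in the same classes. Ccnb1, cyclin B1, was at 126 ± 38.3 CPM in early erythroid cells, 70.2 ± 19.9 CPM in early granulocyte precursors and 51.3 ± 17.7 CPM in immature neutrophils. Cdc20, an activator of the anaphase-promoting complex, was at 89.3 ± 15.8, 71.5 ± 13.3 and 67.7 ± 20.8 CPM in those classes and at 4.33 ± 4.03 CPM in mature neutrophils. Cenpa, the centromeric histone, was at 420 ± 63.3, 170 ± 46.2 and 158 ± 35.4 CPM. Of the kinetochore and midzone genes, Spc25 was highest in immature neutrophils at 82.6 ± 22 CPM, and Kif23, a kinesin of the midzone, was highest in classical monocytes at 105 ± 46.5 CPM. Kif23 still stood at 58.2 ± 36.7 CPM in mature neutrophils, against 94.0 ± 53.1 CPM in immature ones. Plk1, the polo kinase, spread most, with a highest class mean 42 times its lowest.

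Over the 14 classes with at least 3 samples, early erythroid cells had the highest mean of 13 of 15 S members and 10 of 22 G2/M members. Pro-B or pre-B cells had the highest mean of 9 G2/M members, classical monocytes of 2 (Aurkb and Kif23) and immature neutrophils of 1. Mature neutrophils had the lowest mean of 11 S and 10 G2/M members, plasma cells of 2 and 7, and macrophages of 2 and 5. These counts come from 3′ UMIs, which are not scaled by transcript length, so levels are compared within a gene across classes. The classes were not held by the same samples and pools, so these places are a description.

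**Figure D2:**
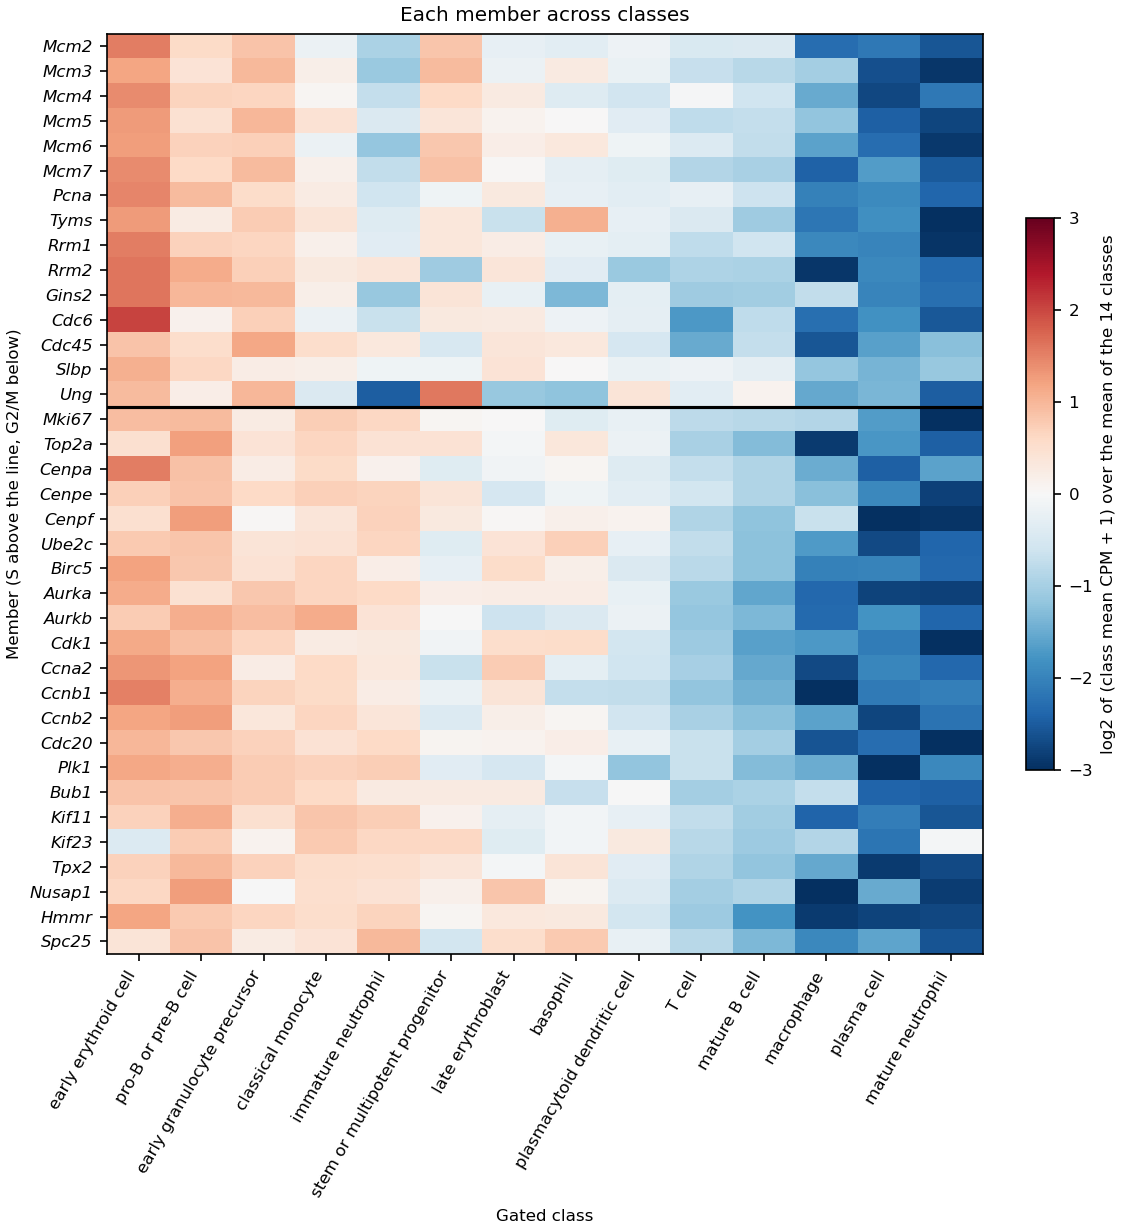
Each of the 37 members (rows) in each marrow class (columns), coloured by the log2 of its class mean (CPM + 1) over the mean of the 14 classes, red above and blue below. Early erythroid cells hold the highest mean of 13 of 15 S members, and mature neutrophils the lowest mean of 11.

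Outside the list, the 5 genes most like the summed S level over the 14 class means were Lig1 (Spearman rho 0.996), Chaf1a (0.987), Tuba1b (0.987), Anp32b (0.982) and Nasp (0.978). Those most like the summed G2/M level were Kif22 (0.996), Ncapg (0.996), Shcbp1 (0.982), Smc2 (0.974) and Esco2 (0.974). They were taken from 9184 genes of at least 20 CPM in some class, and the class means share libraries and depth, so this is a description.

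The granulocyte lineage was compared stage by stage within samples. Most S members were higher in early granulocyte precursors than in immature neutrophils, and no G2/M member was by the main scaling. The summed S level was higher in the earlier class in 18 of 18 samples, the G2/M level in 9 of 18, and the ratio of S to G2/M in 18 of 18. In the edgeR quasi-likelihood test with the sample as a block and TMM scaling, 41.5% of 8891 genes were higher and 45.2% lower in early granulocyte precursors (adjusted p under 0.05). All 37 members passed the low-count filter, and all but Ung also passed it within immature neutrophils on their own. Of the members, 13 of 15 S members were higher and 2 lower (12 and 2 of 14 without Ung), with a median log2 difference of 0.78. None of the 22 G2/M members was higher and 20 were lower, with a median of -0.66, against -0.06 over all genes. With library sizes alone in place of TMM, all 15 S members were higher, and 7 G2/M members were higher and 7 lower, with medians of 1.47 and 0.03. That scaling moved the median of all genes to 0.64.

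The summed UMIs of 8 abundant neutrophil transcripts such as S100a8 made up 40.5 ± 6.90% of all UMIs in immature neutrophils and 3.98 ± 1.47% in early granulocyte precursors. Their part in the gap between the scalings was not tested. The members called in the same direction under TMM, DESeq2 size factors and library sizes alone were 13 S members (Ung among them), all higher in early granulocyte precursors, and 7 G2/M members, all lower: Mki67, Cenpf, Ube2c, Kif11, Kif23, Nusap1 and Spc25. In bulk sums of a class, fewer dividing cells and less of a gene's RNA per cell cannot be told apart.

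Ung stood at a log2 difference of 3.73 ± 0.17 (SE). It passed the filter only through early granulocyte precursors, where it is high, so its value is a description. Of the members that passed in both classes, Mcm3 had the largest rise (1.47 ± 0.06). Gins2, a subunit of the GINS part of the fork helicase, followed (1.45 ± 0.10). Mcm5 (0.80), Cdc6 (0.78), Tyms (0.51) and Pcna (0.49) were higher by less. Rrm2 and Slbp were lower by TMM (both -0.30) and higher with library sizes alone (both 0.39). Spc25, of the NDC80 kinetochore complex, had the most negative value of the G2/M members at -1.38 ± 0.07 (edgeR adjusted p = 1.21e-17), followed by Cenpf, a kinetochore protein, at -1.24 ± 0.08, and Kif23 at -1.15 ± 0.08. Mki67 was at -0.98 ± 0.07 by TMM and -0.29 with library sizes alone. Top2a (-0.63 and 0.06), Cenpa (-0.59 and 0.10), Cdc20 (-0.55 and 0.14) and Ccnb1 (-0.23 and 0.47) changed sign between the 2 scalings.

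Other genes of the same processes were read from the same fit. Of 33 other replication and repair genes, 30 were higher in early granulocyte precursors and 1 lower. Of 35 other mitosis genes tested, 1 was higher and 31 lower. Of 13 cell cycle inhibitor genes tested, 2 were higher and 11 lower, and of 15 cell cycle entry genes 7 were higher and 6 lower. These counts are by TMM.

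**Figure D3:**
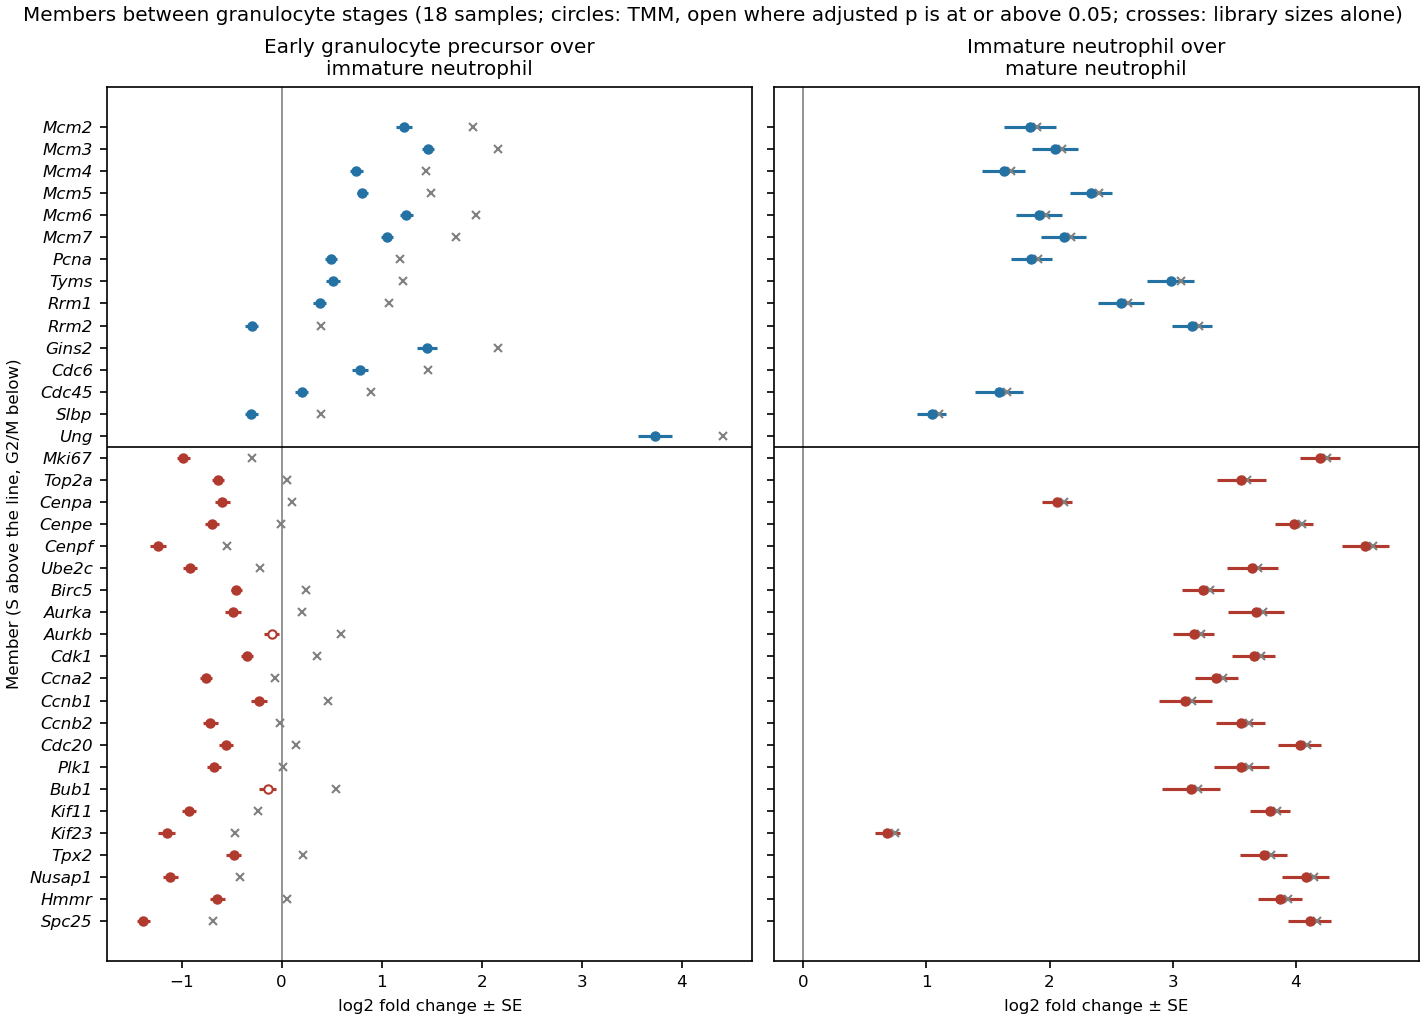
Log2 difference of each member between adjacent stages, as points with SE bars by TMM (open where the adjusted p missed the threshold), and as grey crosses with library sizes alone, for the 2 steps of the granulocyte lineage. For early granulocyte precursors over immature neutrophils, Mcm3 stands at 1.47 and Spc25 at -1.38. Ung, at 3.73, passed the filter only through the class where it is high. The signs of several G2/M members such as Top2a (-0.63 and 0.06) depend on the scaling.

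Summed levels of the members were lower in mature than in immature neutrophils in nearly every sample. The S level was higher in the immature class in 18 of 18 samples and the G2/M level in 17 of 18, the exception being WTO.3 (1935 against 1975 CPM, from 35 mature neutrophils). The edgeR test called 42.7% of 6013 genes higher and 36.9% lower in immature neutrophils. Gins2, Cdc6 and Ung did not pass the low-count filter. Of the other 34 members, only Slbp and Kif23 passed it within mature neutrophils on their own, and both were called higher in immature neutrophils. The other members passed through the immature class, where they are high, so no count over them is given and their values are a description. Cenpf stood at a log2 difference of 4.56 ± 0.19, then Mki67 at 4.20 ± 0.16, Spc25 at 4.11 ± 0.17 and Cdc20 at 4.03 ± 0.17. Top2a stood at 3.55, Rrm2 at 3.16, Ccnb1 at 3.1 and Tyms at 2.98. Smaller differences were those of Kif23 at 0.68 ± 0.10 and Slbp at 1.04 ± 0.12, with Cenpa at 2.06 and Pcna at 1.85. The median of all genes was 0.08, and 0.34 and 0.14 under DESeq2 size factors and library sizes alone.

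In the B lineage, pro-B or pre-B cells were compared with mature B cells in 7 samples, none of them HRO.7, HRO.8 or HRO.9. The edgeR test called 22.5% of 2133 genes higher and 25.9% lower in the earlier class. Of the 37 members 22 passed the low-count filter, and none of them passed it within mature B cells on their own, so no count over them is given and their values are a description. Cenpe, a kinetochore motor, had 3.27 ± 0.34, Mki67 3.23 ± 0.25 and Top2a 3.19 ± 0.21, with Rrm2 at 3.03, Cenpa at 2.02, Mcm5 at 1.85, Pcna at 1.49 and Slbp at 1.14.

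In the erythroid lineage, early erythroid cells were compared with late erythroblasts in 3 samples (HRO.6, HRY.4 and WTY.3). The edgeR test called 17% of 4431 genes higher and 20.4% lower. The filter was passed by 14 S and 22 G2/M members, of which 10 and 14 also passed it within late erythroblasts and early erythroid cells each on their own. Of the 14 S members, Mcm2 (0.67 ± 0.25, adjusted p = 0.0449) was higher, and Slbp (-0.56) and Rrm2 (-0.56) were lower. Of the 14 G2/M members that passed in both classes, Cenpa (0.49 ± 0.18) was higher, and Nusap1 (-0.81), Ube2c (-0.72) and Mki67 (-0.64) were lower. Kif23 (-0.98) was also called lower, but it did not pass the filter in both classes, so its value is a description. With library sizes alone 4 S members and 1 G2/M member were higher and none lower. Only Mcm2 and Cenpa kept their call under the 3 scalings, and no member was called when HRO.6 was left out.

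A per-cell count was made after each cell was thinned to 1000 UMIs, leaving out shallower cells. A cell counted as cycling with at least 2 UMIs of the S members or at least 2 of the G2/M members, which is a range of a score and not a cell type. The share of cycling cells was 90.1 ± 5.78% in early erythroid cells (n = 7), 82.3 ± 7.89% in early granulocyte precursors (n = 18; 66.7 to 95.6%) and 56.4 ± 14% in pro-B or pre-B cells (n = 7). It was 43.5 ± 11.9% in stem or multipotent progenitors (n = 7), 41 ± 9.52% in classical monocytes (n = 18; 23.4 to 59.9%) and 35.7 ± 12.5% in immature neutrophils (n = 18; 19.9 to 74.3%). Mature neutrophils, which do not divide, gave 6.55 ± 6.34% (n = 18; 1.08 to 21.4%) as a background. T cells (16 ± 10.2%, n = 13) and mature B cells (18.3 ± 15.1%, n = 11, and 14.55 ± 14.2%, n = 9, without HRO.7 and HRO.8) overlapped that background.

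The cycling cells were then split by phase, as a description. In early granulocyte precursors 26.4 ± 6.67% of cells had only S UMIs past the limit, 29.9 ± 6.35% only G2/M UMIs and 26.0 ± 9.39% both. In immature neutrophils the values were 3.92 ± 2.00%, 21.7 ± 5.62% and 10.1 ± 6.28%. Stem or multipotent progenitors had 21.2 ± 3.92%, 12.8 ± 8.32% and 9.51 ± 4.89%, and early erythroid cells 13.5 ± 6.20%, 19.2 ± 8.38% and 57.4 ± 16.4%. The limit is the same number of UMIs for lists of 15 and 22 genes, so the 2 phases are not weighed alike.

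Depth differed between classes. Before thinning, the share of cycling cells was 99.5% in early erythroid cells, 98.1% in early granulocyte precursors, 77.3% in stem or multipotent progenitors, 62.8% in classical monocytes, 47.2% in immature neutrophils, 36.1% in pro-B or pre-B cells and 13.4% in mature neutrophils. The mean of the sample medians was 24525 UMIs in early erythroid cells, 16826 in early granulocyte precursors, 4431 in immature neutrophils and 1703 in mature neutrophils. Thinning left out 49.9% of pro-B or pre-B cells, 22.8% of mature neutrophils, 3.74% of immature neutrophils and 1.52% of early granulocyte precursors. By group it left out 2.32% of HRO cells, 6.51% of WTO cells, 13.3% of chronic cells, 15.4% of WTY cells and 17.5% of HRY cells. The thinned UMIs of immature neutrophils include the abundant neutrophil transcripts.

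The members also moved with the pool a sample was run in. Mki67 in immature neutrophils averaged 202 CPM in WBM_1, 634 in WBM_2, 796 in WBM_3 and 293 in WBM_4. In classical monocytes the same means were 219, 686, 778 and 420 CPM, and in early granulocyte precursors 171, 459, 566 and 310 CPM. Pcna had another order, with 136, 95, 236 and 167 CPM in early granulocyte precursors, and Tyms was highest in WBM_2 there at 126 CPM against 65.7 CPM in WBM_1. Birc5, the survivin gene, ran from 205 to 249 CPM over the pools in early granulocyte precursors.

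With group in the model, edgeR called a pool difference for 15 of 37 members in early granulocyte precursors (34% of all genes), 22 of 37 in immature neutrophils (45.7% of all genes) and 19 of 37 in classical monocytes (37.5% of all genes). In mature neutrophils it called 6 of 14 members tested (23.4% of all genes). Mki67 was among them, with adjusted p = 1.05e-07 in immature neutrophils, 2.38e-06 in early granulocyte precursors and 2.00e-05 in classical monocytes. The summed G2/M level of immature neutrophils averaged 2051, 3403, 4618 and 2312 CPM in the 4 pools. The labels name no cause for the pool differences.

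**Figure D4:**
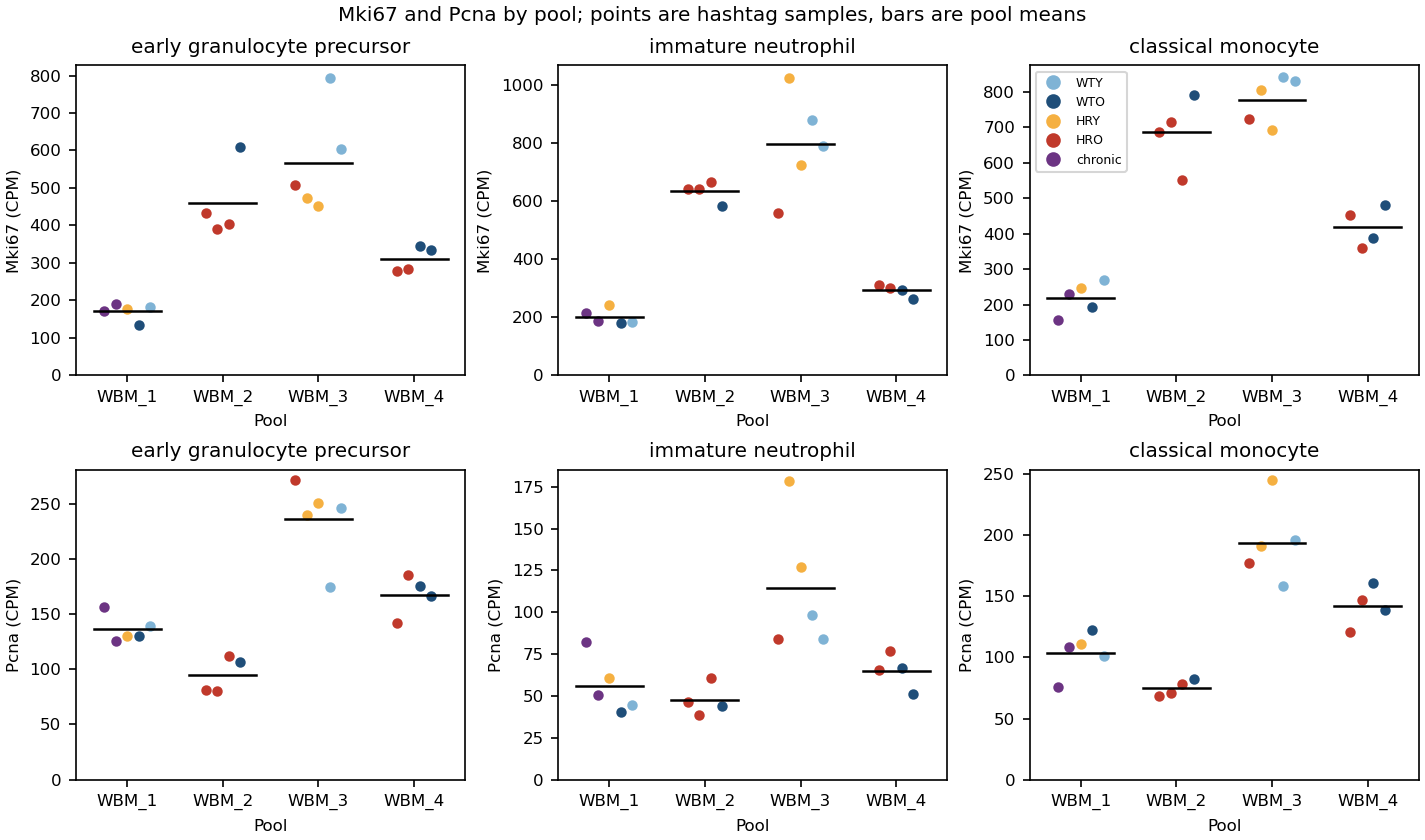
Level of Mki67 (upper row) and Pcna (lower row), in CPM, by pool in early granulocyte precursors, immature neutrophils and classical monocytes, with 1 point per hashtag sample coloured by group and the pool mean as a bar. Mki67 in immature neutrophils averages 202 CPM in WBM_1 and 796 CPM in WBM_3.

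The groups were then compared in 29 fits over 8 classes, and no member passed the threshold in any of them. Pool was a term in all but that of early erythroid cells, whose samples were all of WBM_4. The 5 comparisons share groups, so their values are not independent of each other. Counts of members by DESeq2 or after leaving out samples are given without the share of all genes called in the same fit. They cannot be read as particular to the members. For immature neutrophils, the interval of every member's difference between HRO and WTO lay within 2-fold. Mki67 stood at 644, 642 and 665 CPM in HRO.7, HRO.8 and HRO.9 and 585 CPM in WTO.4, all run in WBM_2. In WBM_4 it stood at 313 and 302 CPM in HRO.11 and HRO.12, and 294 and 263 CPM in WTO.5 and WTO.6. HRO.10 had 559 CPM and WTO.3 had 179 CPM, each the only sample of its group in its pool. In edgeR, 1.54% of 9968 genes passed and 0 of 37 members did, with 0 at an unadjusted p under 0.05 (15.4% of all genes) and 0 called by DESeq2. Mki67 was at a log2 difference of 0.07 ± 0.09 and Top2a at -0.00 ± 0.10, and all 37 intervals (95%) lay within 2-fold, 34 of them within 1.5-fold.

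In early granulocyte precursors most G2/M members had lower fitted values in HRO than in WTO, without a call. The G2/M level was 2836, 2619 and 2686 CPM in HRO.7, HRO.8 and HRO.9 against 3426 CPM in WTO.4. It was 2433 and 2596 CPM in HRO.11 and HRO.12 against 3302 and 2986 CPM in WTO.5 and WTO.6, so within both pools every HRO sample lay below every WTO sample. The log2 ratio of the means was -0.34 in WBM_2 and -0.32 in WBM_4, while that of the S level was -0.06 and 0.03. HRO.10, alone in its pool, had 3585 CPM and WTO.3 had 1777 CPM. In edgeR, 0.194% of 9789 genes passed and 0 of 37 members did. At an unadjusted p under 0.05 there were 8 members and 16.1% of all genes, and DESeq2 called 1 (Hmmr, a spindle protein). Hmmr was at -0.40 ± 0.11 (edgeR adjusted p = 0.107), Plk1 at -0.49 ± 0.17 and Mki67 at -0.29 ± 0.11. A positive sign was found for 3 of 22 G2/M and 7 of 15 S members. Without HRO.9, 3 members were called, and without WTO.3, 1 was.

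Classical monocytes had the largest share of genes called between HRO and WTO, 10.3% of 10034, and 0 of 37 members were among them. Unadjusted, 3 members and 26% of all genes had a p under 0.05, and DESeq2 called 0 members. Cdc20 was at 0.50 ± 0.16 (edgeR adjusted p = 0.053), Tyms at 0.53 ± 0.23, Mki67 at -0.03 ± 0.13 and Pcna at -0.13 ± 0.13. The intervals of 35 members lay within 2-fold. Without HRO.9, 2 members were called. The G2/M level had a log2 ratio of -0.39 in WBM_2 and -0.00 in WBM_4.

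Early erythroid cells could be compared in WBM_4 only, with 2 HRO and 2 WTO samples. Cdc6 stood at 107 and 89.8 CPM in HRO.11 and HRO.12 against 155 and 146 CPM in WTO.5 and WTO.6. Pcna stood at 313 and 275 CPM against 386 and 427 CPM. Both genes were lower in both HRO samples than in either WTO sample. In edgeR, 0.658% of 8353 genes passed and 0 of 37 members did, with 14 at an unadjusted p under 0.05 (10.9% of all genes) and 0 called by DESeq2. Cdc6 was at -0.63 ± 0.14 (edgeR adjusted p = 0.107), Pcna at -0.48 ± 0.12 and Rrm2 at -0.52 ± 0.15. All 15 S members had a negative sign, and all 37 intervals lay within 2-fold. Leaving out HRO.11 or HRO.12 left 1 HRO sample, which was assumed to vary like the 2 WTO samples (1 residual degree of freedom). That fit called 6 members lower without HRO.11 and 1 without HRO.12. Neutrophil RNA moved with these values, with 4 of 8 genes called lower in HRO and a median log2 difference of -1.39 over the 8. Elane, a granule gene, stood at 14.6 and 13.6 CPM in HRO.11 and HRO.12 against 566 and 233 CPM in WTO.5 and WTO.6, and Camp, another, at 125 and 222 against 1072 and 1312 CPM. Their part in the result was not tested.

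In the lymphoid and dendritic gates HRO and WTO were compared from few samples. The low-count filter ran over all groups together, so a member could pass through HRO alone, where it is high. Counts over members in these gates are therefore a description. In the mature B cell gate the G2/M level was 2954, 2313 and 1871 CPM in HRO.7, HRO.8 and HRO.9 and 565, 977, 308 and 303 CPM in WTO.3 to WTO.6. The groups did not overlap, and all 3 HRO samples came from WBM_2, as did WTO.4. In edgeR, 0.558% of 3223 genes passed and 0 of 20 members did, with 13 at an unadjusted p under 0.05 (23.6% of all genes) and 0 called by DESeq2. Mcm6 was at 2.93 ± 0.72 (edgeR adjusted p = 0.086) and Mki67 at 1.77 ± 0.51. Without HRO.7 and HRO.8 the only HRO sample was HRO.9, whose Ighd was also low, while its Cr2, Fcer2a and Ms4a1 were not. With that sample assumed to vary like the other groups (2 residual degrees of freedom), 6 members were called higher. Without HRO.9 alone 10 were called higher. Without WTO.4 alone 10 were called higher by a fit without pool, since WBM_2 then held only HRO samples and pool and group cannot be told apart. Among the 86 cells of HRO.7 without Ccl22 the G2/M level was 3679 CPM, and 2617 CPM among those with it. In HRO.8 the order was the other way, with 2433 CPM among the cells with Ccl22 and 2313 CPM among all its cells. So it was for HRO.7 in the plasmacytoid dendritic gate, with 2535 CPM without Ccl22 and 2916 CPM with it.

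In the plasmacytoid dendritic gate the G2/M level was 2688, 2933 and 3244 CPM in HRO.7, HRO.8 and HRO.9 and 380, 1400 and 3449 CPM in WTO.3, WTO.4 and WTO.6, so the groups overlapped. In edgeR, 0.0501% of 3996 genes passed and 0 of 29 members did, with 8 at an unadjusted p under 0.05 (5.83% of all genes) and 0 by DESeq2. Cenpa was at 2.03 ± 0.39 (edgeR adjusted p = 0.197). Without HRO.7 and HRO.8 the only HRO sample was HRO.9, and with that sample assumed to vary like the other groups (1 residual degree of freedom) 3 members were called higher. Without HRO.9 alone 4 were called higher. In T cells, 0% of 3224 genes and 0 of 23 members passed, with 4 unadjusted (9.65% of all genes) and 0 by DESeq2. The G2/M level of T cells was 2819, 2776 and 2255 CPM in HRO.7, HRO.8 and HRO.11 and 407 to 1223 CPM in the other HRO samples, against 177 to 884 CPM in 3 WTO samples. The T cell subset gene Cd8a stood at 404, 423 and 331 CPM in the first 3 samples, 109 and 167 CPM in HRO.9 and HRO.12, 585 CPM in HRO.10 and 137 to 245 CPM in WTO. Its part in the result was not tested. In mature neutrophils, 1.97% of 5237 genes and 0 of 14 members passed, with 0 unadjusted (11.5% of all genes) and 0 by DESeq2.

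**Figure D5:**
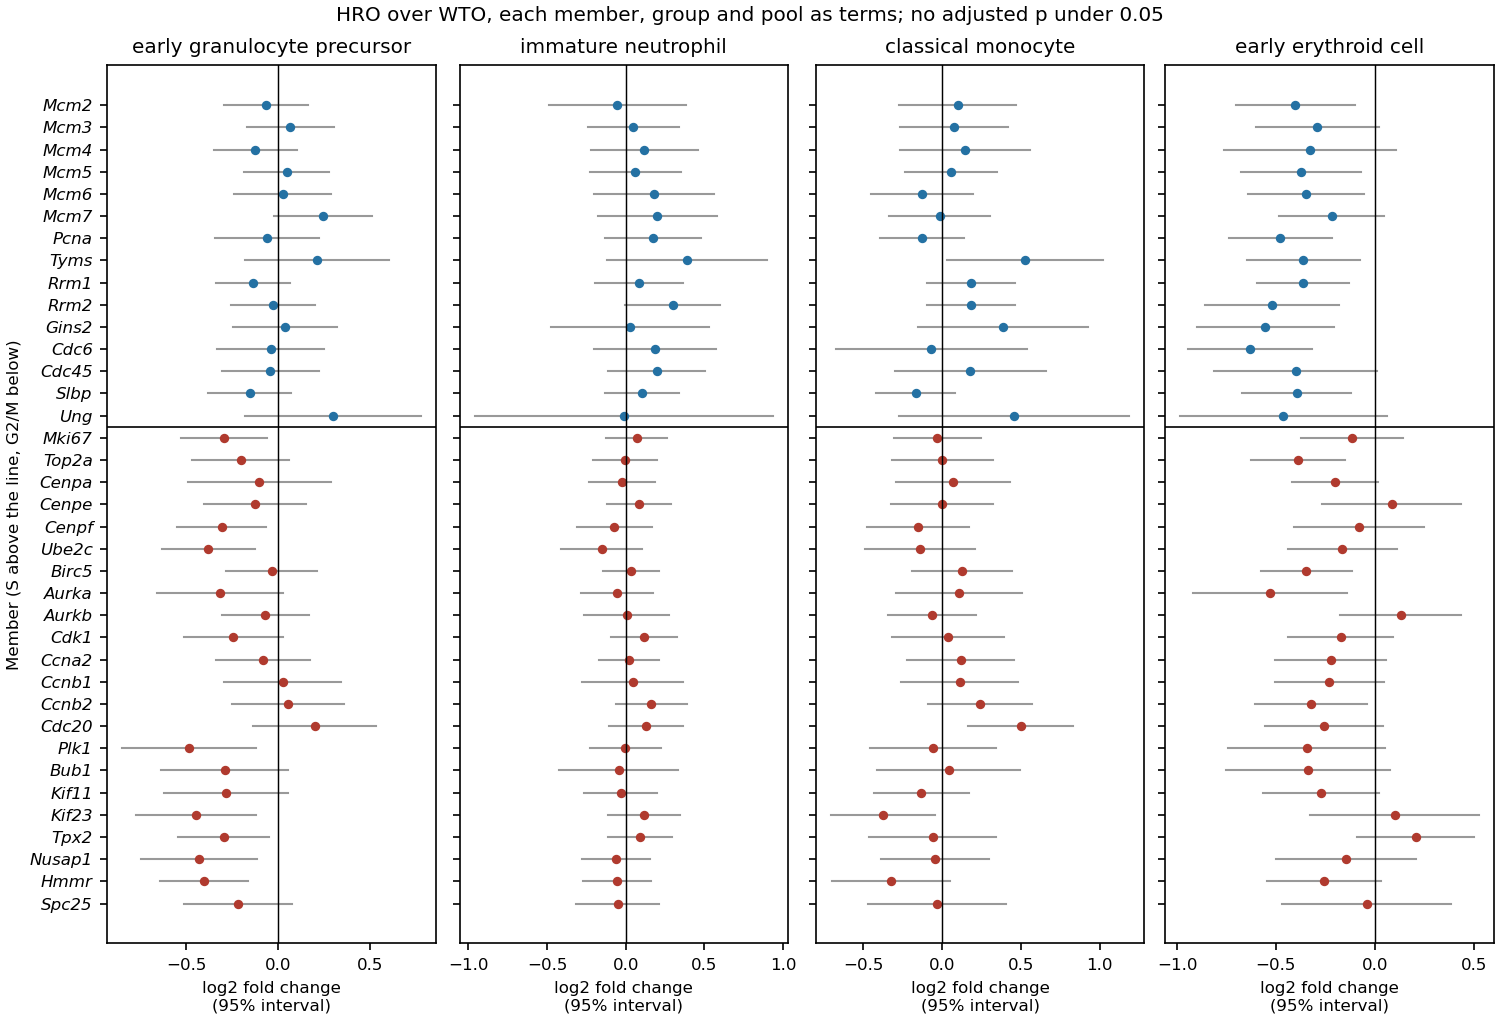
Log2 difference of each member between HRO and WTO, as points with 95% intervals, in early granulocyte precursors, immature neutrophils, classical monocytes and early erythroid cells. Pool was in the model except for early erythroid cells, whose samples were all of WBM_4. No member passed the threshold. All 37 intervals lie within 2-fold in the first 2 panels and the last, and 35 in the panel of classical monocytes.

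HRO was next compared with HRY. In immature neutrophils all 37 members had a negative sign, with a median log2 difference of -0.42. The share of all genes called was 0.702%, and 0 of 37 members passed in edgeR, with 17 at an unadjusted p under 0.05 (14.4% of all genes) and 3 called lower by DESeq2 (Cenpe, Cenpf and Mki67). Mki67 was at -0.49 ± 0.14 (edgeR adjusted p = 0.106), Cdc20 at -0.64 ± 0.17, Pcna at -0.69 ± 0.22 and Cenpe at -0.57 ± 0.15. HRY.5 had the highest Mki67 of all 18 samples in this class at 1026 CPM, HRY.6 had 726 and HRY.4 had 244 CPM. HRO.10 at 559 CPM was the only HRO sample in a pool with HRY, so the contrast rests on it and on the pool term. Without HRY.6, 4 members were called. In early granulocyte precursors 0.909% of genes and 0 of 37 members passed, with 3 unadjusted (14.7% of all genes) and 1 by DESeq2 (Ube2c, the ubiquitin-conjugating enzyme of the anaphase-promoting complex, -0.68 ± 0.19). In classical monocytes 4.72% and 0 of 37 passed, with 2 unadjusted (19.3% of all genes) and 1 by DESeq2 (Slbp, -0.60 ± 0.17), and without HRO.9, 2 were called by edgeR. In mature neutrophils 0.687% and 0 of 14 passed, with 1 unadjusted (10.4% of all genes) and 0 by DESeq2.

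Between HRY and WTY, 35 of 37 members had a positive sign in immature neutrophils, with a median of 0.26. The share of all genes called was 0.01%, and 0 of 37 members passed in edgeR, with 8 unadjusted (11.5% of all genes) and 1 by DESeq2 (Pcna). Pcna was at 0.69 ± 0.18 (edgeR adjusted p = 0.228) and Mki67 at 0.21 ± 0.11. Pcna stood at 60.8 CPM in HRY.4 against 44.5 CPM in WTY.3, both in WBM_1, and at 178 and 127 CPM in HRY.5 and HRY.6 against 98.1 and 83.9 CPM in WTY.4 and WTY.5, all in WBM_3. All HRY samples thus lay above the WTY samples of their pool. In early granulocyte precursors 0% of genes and 0 of 37 members passed, with 8 unadjusted (6.23% of all genes) and 0 by DESeq2. In classical monocytes 0% and 0 of 37 passed, with 0 unadjusted (5.15% of all genes) and 0 by DESeq2, and in mature neutrophils 0.0191% and 0 of 14, with 0 (4.87%) and 0.

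WTO and WTY gave 0 members called in 6 classes by edgeR and by DESeq2. The share of all genes called and the number of members with an unadjusted p under 0.05 were 0% and 6 in early granulocyte precursors, 0% and 5 in immature neutrophils, 0% and 2 in classical monocytes, 0.0382% and 3 in mature neutrophils, 0% and 0 in mature B cells and 0% and 2 in T cells. Unadjusted, 4.06% to 6.84% of all genes were under 0.05 in these 6 fits. Mki67 was at -0.35 ± 0.14 in immature neutrophils and -0.21 ± 0.20 in classical monocytes. The chronic samples against HRO also gave 0 members called in 7 classes by either tool. The same 2 values were 0.0102% and 5 in early granulocyte precursors, 0% and 0 in immature neutrophils, 0.0897% and 3 in classical monocytes, 0% and 3 in mature neutrophils, 0% and 1 in plasmacytoid dendritic cells, 0.124% and 6 in mature B cells and 0% and 2 in T cells. Unadjusted, 4.15% to 12.3% of all genes were under 0.05 in these 7 fits. Ube2c in early granulocyte precursors was at 0.80 ± 0.22 (edgeR adjusted p = 0.302), Mki67 in immature neutrophils at 0.18 ± 0.16, and Rrm2 in classical monocytes at -0.65 ± 0.23. Both chronic samples were run in WBM_1, which held no HRO sample, so that contrast rests on the pool term.

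The precision of the fits limits what these comparisons can show. When changes were simulated for HRO against WTO, edgeR recovered 26.8% of 1.5-fold and 65.7% of 2-fold changes in early granulocyte precursors (9522 genes). The values were 32.3% and 79.6% in immature neutrophils (9658 genes), 22.7% and 60.8% in classical monocytes (9784 genes), and 0% at both sizes in T cells (2886 genes).

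The share of cells with a Mki67 UMI after thinning was compared between HRO and WTO in 8 classes by exact two-sided permutation tests over samples. Unlike the edgeR fits, these tests took no account of pool, and the 2 groups were spread unevenly over the pools. In immature neutrophils the share was 22.4 ± 8.33% in 6 HRO samples and 13.6 ± 3.95% in 4 WTO samples (exact p = 0.0952). In classical monocytes it was 26.9 ± 6.94% and 17.6 ± 10.2% (exact p = 0.105), and in early granulocyte precursors 27.3 ± 5.10% and 21.6 ± 16% (exact p = 0.448). In the mature B cell gate it was 23.0 ± 3.99% in 3 HRO samples and 1.52 ± 1.89% in 3 WTO samples (exact p = 0.1, the smallest this size can give), and 21.1% in HRO.9, the 1 HRO sample left without HRO.7 and HRO.8. The lowest adjusted p over the 8 classes was 0.279. Mature neutrophils, the background, gave 1.67 ± 1.36% and 2.91 ± 3.87% (exact p = 0.590).

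The Mki67 shares also followed the pools. In WBM_4 immature neutrophils gave 12.3% in HRO and 12.6% in WTO, and in WBM_2 29.2% and 19.1%. Classical monocytes gave 20.5% and 17.3% in WBM_4 and 27.8% and 30.0% in WBM_2. Early granulocyte precursors gave 22.9% and 17.3% in WBM_4 and 29.2% and 43.5% in WBM_2, so the sign of the difference turned between pools in each of these 3 classes. In the mature B cell gate WBM_2 gave 23.0% and 0.926%.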

How the data were processed

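Gene UMI counts of 7 libraries were used as the authors deposited them, as whole-number counts per gene and barcode with no normalisation. Per the file headers, Cell Ranger 3.0.0 (WBM_1) or 3.1.0 (the other libraries) wrote them. Per the submitters' processing notes, bcl2fastq, Seurat and mm10 were used. The gene annotation is not given in the sources used here, nor is the rule for calling cells. The hashtag values are likewise counts as deposited.

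The members and lists were chosen with earlier results of these data known. Hashtags were assigned with HTODemux (Seurat 5.3.0, quantile 0.99, centred log-ratio across cells), and only singlets were kept, so doublets were removed by hashtag alone. Cells needed at least 300 genes and under 10% mitochondrial counts. Of 78720 barcodes 43024 cells stayed. A marker was on with at least 1 UMI and at least 0.5 of its 99.5th percentile level, and the class with the most markers on, at least 2, took the cell. The stricter gate asked for 3 and a margin of 0.2.

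Counts were summed per sample and class with at least 20 cells and tested with edgeR 4.0.16 (quasi-likelihood, TMM, filterByExpr, group and pool as terms) with Benjamini-Hochberg adjustment over all genes at 0.05. Early erythroid cells had group alone as a term. SE is the log2 difference over the square root of F. Differences between classes had the sample as a block, a design added after the data were seen. The numbers in sample names were checked for pairing by correlating deviations from group means over genes. For WTO and WTY (3 pairs, 4 classes) r was 0.123 to 0.487 in every pair, and the pair numbered 3 shared a pool, so a replicate block was tried. For HRY and WTY (2 pairs) r was -0.05 to -0.01. DESeq2 1.42.0 was an alternative, beside other filters, gates, scalings and the leaving out of each sample. The scripts were tested on simulated data. R 4.3.3, scanpy 1.11.5 and scipy 1.17.1 were used. Low counts carry counting error, and more cells and UMIs give more precision. Named genes followed 1 rule, which took the highest member of each phase in every class, every member called (the 3 largest rises and falls where over 6), and Mki67, Top2a, Pcna, Mcm5, Tyms, Rrm2, Cdc6, Ccnb1, Cdc20 and Cenpa. Other members named were chosen after their values were seen.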

Additional observations from a re-analysis of the deposited data

Results flagged for a closer look

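In the group HRO, 1 sample stood far from the other 5 in early granulocyte precursors. HRO.10 had a summed S level of 2490 CPM against 1744 to 1853 CPM in the others, and a summed G2/M level of 3585 CPM against 2433 to 2836 CPM. It held 33 cells of the class and was the only HRO sample in WBM_3, where the 4 samples of the other groups had summed S levels of 1783 to 2392 CPM and summed G2/M levels of 2980 to 4604 CPM. The part of the pool in this gap was not tested.

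In the group WTO, 1 sample stood far from the other 3 in mature neutrophils. WTO.3 had a summed G2/M level of 1975 CPM against 180 to 253 CPM in the others. After thinning, its share of cycling cells was 8.70% against 2.50 to 3.12%. Its share of cells with a Mki67 UMI was 8.70% against 0.559 to 1.39%. Thinning left out shallower cells, so both of its shares were taken over fewer than 35 cells and rest on only a few cells. WTO.3 held 35 cells of the class before thinning and was the only WTO sample in WBM_1. The immunoglobulin gene Ighm stood at 3473 CPM in those cells, against 125 to 422 CPM in the other WTO samples and 4975 CPM in HRO.12, whose summed G2/M level was 246 CPM. Whether these go together was not tested. Chance flags about 1 in 20 sets of values, and 5 values were flagged over 38 sets of 4 to 6 samples tested. A set is 1 measure in 1 class and group, so sets of the same samples are not independent. All 5 flagged values came from HRO.10 and WTO.3.

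HR.AE, a sample with no group, held 1272 mast-like cells with a summed G2/M level of 1016 CPM and a summed S level of 531 CPM. The only grouped sample with at least 20 such cells, HRO.7 with 22, had 608 and 396 CPM.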

How the results depend on the processing

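Of the counts of members called between groups, 354 under an alternative were within 1.5 times the main count of 0 and 44 moved. For HRO against WTO in mature B cells, at least 50 cells gave 17 members called, group alone without pool 15, mitochondrial share under 5% 7, no low-count filter 9, and leaving out HRO.7 and HRO.8 6. Leaving out each sample gave 0 to 10 (10 without HRO.9 and 10 without WTO.4). The fits with a mitochondrial share under 5% and without WTO.4 had no pool term, since pool and group could not be told apart there. The same comparison without a low-count filter gave 8 in T cells, 4 in plasmacytoid dendritic cells, 4 in early erythroid cells, 3 in early granulocyte precursors and 2 in classical monocytes. A mitochondrial share under 5% gave 1 in classical monocytes and 1 in early granulocyte precursors, where DESeq2 also gave 1. In plasmacytoid dendritic cells hashtags normalised within each cell gave 2 and leaving out HRO.7 and HRO.8 gave 3. Leaving out each sample gave 0 to 4 in plasmacytoid dendritic cells, 0 to 2 in classical monocytes and 0 to 3 in early granulocyte precursors (each highest without HRO.9), and 0 to 6 in early erythroid cells (6 without HRO.11, 1 without HRO.12). For HRO against HRY in classical monocytes, DESeq2, mitochondrial share under 5% and the stricter gate each gave 1, no filter 2, and leaving out each sample 0 to 2. In early granulocyte precursors, at least 50 cells (without pool), DESeq2, no filter and the stricter gate each gave 1. In immature neutrophils DESeq2 gave 3, no filter 6 and leaving out each sample 0 to 4 (4 without HRY.6). For HRY against WTY in immature neutrophils DESeq2 gave 1 and no filter 4. No filter gave 1 for WTO against WTY in T cells. For chronic against HRO, a mitochondrial share under 5% and no filter each gave 1 in early granulocyte precursors. In mature B cells at least 50 cells gave 6, group alone 8, mitochondrial share under 5% 7 and no filter 3. These counts stand without the share of all genes called in the same fits, so they cannot be read as particular to the members. The cause was not tested.

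Between classes 18 counts moved and 102 did not. With library sizes alone, early granulocyte precursors over immature neutrophils gave 0 S members lower, 7 G2/M members higher and 7 lower, and early erythroid cells over late erythroblasts gave 4 S members higher, 0 lower and 0 G2/M members lower. The stricter gate moved the counts for pro-B or pre-B cells over mature B cells. They are not given, since no member passed the low-count filter within mature B cells on their own. In the erythroid pair the stricter gate gave 0 S members higher, 0 lower and 1 G2/M member lower. Leaving out each of its 3 samples gave 0 to 1 S members higher, 0 to 2 lower, 0 to 1 G2/M members higher and 0 to 5 lower.

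The share of cycling cells moved in 17 recomputed values and not in 118. Thinned to 2000 UMIs it was 52.9% in classical monocytes, 97.7% in early erythroid cells, 96.6% in early granulocyte precursors, 83.8% in pro-B or pre-B cells and 61.8% in stem or multipotent progenitors. Without thinning the same classes gave 62.8, 99.5, 98.1, 36.1 and 78.3% (the last over 8 samples, 1 more than after thinning), and mature neutrophils 13.4%. Thinned to 500 UMIs the first 4 gave 30.4, 71.5, 51.6 and 24.8%. With at least 3 UMIs of a phase early erythroid cells gave 78.9% and early granulocyte precursors 60.8%. All 113 recomputed differences in the share of cells with Mki67 kept their side of the threshold. This says nothing for mature B, plasmacytoid dendritic and early erythroid cells, where so few samples cannot pass it. In the other classes the smallest p the main permutation test could give was 0.00952, or 0.0238 in T cells. After adjustment over 8 classes none of these could pass on its own, so the kept sides say little there too. With the number in the sample name as a replicate block, over samples whose number both groups hold and without pool, 0 members were called for WTO against WTY in 5 classes (none was tested in mature B cells) and 0 for HRY against WTY in 4, so the block changed no call. The other comparisons share no number. In T cells, the only lymphoid gate simulated, no 2-fold change was recovered.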

Other observations

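HR.7, a sample of WBM_3 with no group, held 2803 cells, of which 660 were early erythroid cells. Their summed S level was 2927 CPM and their summed G2/M level 3379 CPM. Its immature neutrophils had 1426 and 4530 CPM, its early granulocyte precursors 2307 and 3453 CPM, and its classical monocytes 1493 and 3839 CPM. Its T cells had 1522 and 3645 CPM, its plasmacytoid dendritic cells 1331 and 3120 CPM, its stem or multipotent progenitors 2053 and 1931 CPM, and its mature neutrophils 203 and 431 CPM. HR.AE, a sample of WBM_2 with no group, held 1401 cells, of which 1272 passed the mast-like gate.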
